A study of Mus musculus with 6 samples.

Results

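The condensin genes were examined in the nascent transcription of cultured muscle stem cells (MuSCs). Their 8 members were taken by gene symbol from the deposited table of listed genes: Smc2 and Smc4, which both complexes share, Ncapd2, Ncapg and Ncaph of condensin I, and Ncapd3, Ncapg2 and Ncaph2 of condensin II. All 8 were among the 14546 genes listed, and all 8 passed the filter on low values and stood among the 12451 genes tested. They were picked by name, with earlier results of these data known.

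PRO-seq maps engaged RNA polymerase by letting polymerases on isolated nuclei extend their nascent RNA over a short stretch, so it reads transcription itself and not the amount of stored mRNA. MuSCs, the Pax7-expressing stem cells of skeletal muscle, were purified from adult mice by magnetic sorting and proliferated in a medium with serum, LIF and bFGF. Ctrl MuSCs carried Pax7CreERT and wild-type Kmt5b (Suv4-20h1), and Kmt5b sKO MuSCs carried the same Pax7CreERT with Kmt5b deleted after tamoxifen, so the tamoxifen-inducible Cre under the Pax7 locus was common to both groups and acts only in cells that use that locus. Each group held 3 libraries, which the study calls biological replicates. Since the labels do not tie them to separate animals, p-values measure the spread between these libraries, which may be technical.

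KMT5B adds further methyl groups to histone H4 lysine 20 that already carries 1, and the question put to these libraries was how loss of the enzyme alters polymerase over genes. Kmt5b itself could not check the genotype, as its gene body level in TPM (a read density scaled for body length and library depth) was 30.6, 35.4 and 38.5 in the Ctrl libraries, with 37.8, 35.0 and 42.6 in Kmt5b sKO (log2 fold change 0.14 ± 0.14 SE, limma adjusted p = 0.71), and a conditional allele can still be transcribed after the excision. Gene bodies of the listed genes held 7425419 to 16249131 reads per library and the TSS regions 926904 to 3246052, with the Kmt5b sKO 2 library the shallowest in both. The myoblast regulator Myod1 stood at 1091 ± 214 TPM in Ctrl and 1179 ± 130 in Kmt5b sKO (SD, n = 3), the muscle intermediate filament gene Des at 443 ± 106 and 737 ± 182, and Pax7 at 38.6 ± 14 and 27.8 ± 2.1, so the libraries carried the markers of the labelled cells. Some genes listed as markers of other cell types had signal too, with 314 ± 95 TPM in Ctrl and 323 ± 3.4 in Kmt5b sKO for the lysosomal gene Cd68, 60.4 ± 24 and 60.4 ± 17 for Col1a2 and 48.1 ± 10 and 39.8 ± 3.5 for Col3a1, while Ptprc, Kdr and Dcn, which mark immune cells, endothelium and fibroblasts, are not in the table of listed genes.

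Condensins are ring-shaped ATPases that fold chromatin into loops and compact chromosomes for mitosis. Smc2 and Smc4 form the hinged ATPase arms of both complexes, a kleisin closes the ring (Ncaph in condensin I, Ncaph2 in condensin II), and a pair of HEAT-repeat proteins sits on the kleisin (Ncapd2 and Ncapg in condensin I, Ncapd3 and Ncapg2 in condensin II). Condensin II resides in the nucleus through interphase, while condensin I is largely cytoplasmic until the nuclear envelope breaks down. Binding to H4K20me1, the mark that KMT5B consumes, has been described for the HEAT subunits of condensin II, and several condensin genes are known for mRNA that peaks late in the cell cycle of dividing cells.

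The 8 genes lie on 8 different chromosomes. In the GRCm38 coordinates of the isoform used for each gene, Smc2 spans chr4:52439243-52488260 (plus strand), Smc4 chr3:69004991-69034618 (plus), Ncapd2 chr6:125168007-125191701 (minus), Ncapg chr5:45669919-45700546 (plus), Ncaph chr2:127103809-127133954 (minus), Ncapd3 chr9:27030175-27095311 (plus), Ncapg2 chr12:116405402-116461611 (plus) and Ncaph2 chr15:89355719-89372826 (plus). The TSS region was the first 400 nt of the isoform and the gene body the rest, from 16707 nt in Ncaph2 to 64736 nt in Ncapd3. Gene bodies were mainly intronic, with 7.99% (Ncapd3) to 19.0% (Ncapd2) of their bases in annotated exons, and the TSS regions held 100 (Smc4) to 325 (Ncapd3) exonic bases, with coding bases in Ncapg (111 nt), Ncaph (19 nt) and Ncaph2 (15 nt).

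Promoters of the members are shown for 5 genes, 3 with and 2 without a match to an E2F site. Whether promoter sequence bears on the levels of these genes was not tested. RefSeq promoters of the GRCm38.p6 build, from 250 bases before to 50 after the RefSeq start, matched 7 of the 8 members, all but Smc4. Capitals mark 3 motifs searched on both strands: an E2F site (TTTCCCGC, TTTGGCGC, TTTCGCGC or TTTGCCGC), to which the E2F factors of the G1 to S transition bind, the cell cycle homology region or CHR (TTTGAA or TTCGAA), used by the MuvB complexes in late cell cycle genes, and the CCAAT box (CCAAT), bound by NF-Y. A word on the minus strand appears as its reverse complement, and all sequences run 5′ to 3′ on the strand of the gene.
Ncapd2, chr6:125191537-125191836, minus strand: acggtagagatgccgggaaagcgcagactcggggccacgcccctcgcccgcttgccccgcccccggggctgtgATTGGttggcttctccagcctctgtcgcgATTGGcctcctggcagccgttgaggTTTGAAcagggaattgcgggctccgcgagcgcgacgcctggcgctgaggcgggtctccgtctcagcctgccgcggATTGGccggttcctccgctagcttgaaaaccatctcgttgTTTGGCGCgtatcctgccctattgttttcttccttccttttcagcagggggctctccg
Ncapg, chr5:45669675-45669974, plus strand: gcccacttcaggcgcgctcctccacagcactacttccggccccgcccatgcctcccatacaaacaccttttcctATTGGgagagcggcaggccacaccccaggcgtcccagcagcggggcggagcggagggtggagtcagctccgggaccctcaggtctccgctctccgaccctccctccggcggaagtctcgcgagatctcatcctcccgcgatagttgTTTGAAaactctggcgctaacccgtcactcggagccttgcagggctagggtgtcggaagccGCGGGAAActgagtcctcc
Ncapg2, chr12:116405186-116405485, plus strand: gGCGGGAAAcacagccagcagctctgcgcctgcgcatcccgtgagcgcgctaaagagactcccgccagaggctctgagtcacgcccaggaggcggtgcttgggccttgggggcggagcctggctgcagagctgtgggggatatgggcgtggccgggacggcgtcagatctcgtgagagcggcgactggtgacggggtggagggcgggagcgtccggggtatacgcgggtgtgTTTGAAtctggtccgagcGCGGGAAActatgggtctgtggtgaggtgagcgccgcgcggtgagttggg
Smc2, chr4:52438971-52439270, plus strand: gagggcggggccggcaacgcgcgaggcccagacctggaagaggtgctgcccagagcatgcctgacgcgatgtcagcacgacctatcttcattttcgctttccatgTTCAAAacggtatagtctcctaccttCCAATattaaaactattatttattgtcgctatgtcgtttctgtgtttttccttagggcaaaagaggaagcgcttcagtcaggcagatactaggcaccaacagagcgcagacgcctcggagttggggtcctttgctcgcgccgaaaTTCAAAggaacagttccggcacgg
Ncaph, chr2:127133905-127134204, minus strand: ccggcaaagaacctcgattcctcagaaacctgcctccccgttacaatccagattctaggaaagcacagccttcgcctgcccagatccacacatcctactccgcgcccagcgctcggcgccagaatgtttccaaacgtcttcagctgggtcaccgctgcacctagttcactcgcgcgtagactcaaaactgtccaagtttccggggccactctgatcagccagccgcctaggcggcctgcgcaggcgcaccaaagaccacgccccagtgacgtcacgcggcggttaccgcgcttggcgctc

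Counting from 0 at the RefSeq start, Ncapd2 had TTTGGCGC at -8 to -1, TTTGAA at -123 to -118 and 3 CCAAT words on the minus strand, starting at -177, -148 and -48. Ncapg had TTTCCCGC on the minus strand at 31 to 38, TTTGAA at -30 to -25 and 1 CCAAT at -176 to -172. The Ncapg2 promoter held 2 TTTCCCGC words on the minus strand, at -249 to -242 and at 0 to 7, with TTTGAA at -18 to -13 and no CCAAT. Smc2 had 2 TTTGAA words and 1 CCAAT, Ncaph2 had TTCGAA alone at -22 to -17, and Ncaph and Ncapd3 held none of these words in the window.

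E2F words were thus found in 3 of the 7 matched promoters, CHR words in 5 and CCAAT words in 3, with all 3 motifs in Ncapd2 and Ncapg. Of the 32851 promoters of the same length in the RefSeq table, 2.26% held an E2F word, 19.2% a CHR word, 37.4% a CCAAT word and 0.146% all 3. The GC content of the members' windows ran from 52.7% in Smc2 to 69.3% in Ncapd3, against a median of 52.7% over all promoters. The match is a description of letters, and binding was not measured in these libraries. RefSeq and the deposited table place the start of Ncaph and Ncaph2 at the same base, while the RefSeq start lies 115 nt downstream of the listed one in Ncapd2 and 34 nt in Ncapg2.

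Gene bodies were read first, since their level reflects polymerase in productive elongation and is given per length. Body levels of 6 of the 8 members were lower in Kmt5b sKO than in Ctrl at a limma adjusted p under 0.1, Smc2, Smc4, Ncapd2, Ncapg, Ncapd3 and Ncapg2, and none was higher. Across all tested genes 172 of 12451 (1.38%) were called lower by the same rule. In 7 of the 8, all but Ncaph2, the 3 Kmt5b sKO libraries lay below all 3 Ctrl libraries, which was so in 9.34% of tested genes. The median log2 fold change of the members was -1.01, with a range of -1.24 (Ncapg) to -0.45 (Ncaph2), beside a median of 0.023 over all tested genes.

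Both genes of the ATPase core fell, Smc4 by 1.92-fold and Smc2 by 2.11-fold. As TPM is scaled to each library's own total, these and the other folds are changes in share of the signal. Smc4 gave 64.5, 66.2 and 51.8 TPM in the Ctrl libraries, against 31.98, 30.45 and 31.20 TPM in Kmt5b sKO. All 3 Kmt5b sKO libraries lay close together and well below the lowest Ctrl library, with a mean of 31.2 ± 0.77 TPM against 60.8 ± 7.8 (log2 fold change -0.94 ± 0.13 SE, limma adjusted p = 0.061). Smc2, its partner in the ring, gave 19.0, 20.0 and 16.1 TPM in Ctrl, compared with 7.75, 8.29 and 9.21 TPM in Kmt5b sKO. These groups stood apart too, at 18.4 ± 2.0 and 8.42 ± 0.74 TPM (log2 fold change -1.08 ± 0.15 SE, limma adjusted p = 0.061). On the per-length scale Smc4 was higher than Smc2 in every library, by a log2 difference of 1.66 to 1.98.

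Within the Smc4 gene, on its own strand, lie Mir15b (chr3:69009772-69009835) and Mir16-2 (chr3:69009902-69009996), so PRO-seq reads over Smc4 include the primary transcript of these microRNAs. Their 5p arms, from the RefSeq table, are shown because they share the seed of the miR-15/16 family, known for its cyclin and Bcl2 targets, with the seed at bases 2 to 8 in capitals.
mmu-miR-15b-5p: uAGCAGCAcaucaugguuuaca
mmu-miR-16-5p: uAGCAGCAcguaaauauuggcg
The mature microRNAs were not measured by this assay.

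The HEAT subunits Ncapd2 and Ncapd3 both fell, and the difference between their changes was not tested. Ncapd2, the condensin I subunit needed for its loading on mitotic chromosomes, gave 40.7, 38.6 and 25.5 TPM across Ctrl and 15.4, 19.4 and 19.4 TPM across Kmt5b sKO. Ctrl 3 was the lowest Ctrl library and still exceeded every Kmt5b sKO library, and the means were 34.9 ± 8.2 and 18.0 ± 2.3 TPM (log2 fold change -0.91 ± 0.21 SE, limma adjusted p = 0.098). Its condensin II counterpart Ncapd3 gave 17.2, 14.9 and 13.2 TPM in the Ctrl libraries, against 9.02, 9.86 and 9.36 TPM in Kmt5b sKO. The groups did not overlap, with means of 15.1 ± 2.0 and 9.41 ± 0.42 TPM, and the log2 fold change of -0.65 ± 0.15 SE (limma adjusted p = 0.098) was the smallest among the called members.

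The other HEAT pair had the largest log2 fold changes of the family. Ncapg of condensin I, whose promoter with all 3 motifs is printed above, gave 14.0, 13.5 and 12.5 TPM in Ctrl, compared with 4.97, 6.06 and 5.13 TPM in Kmt5b sKO. The gap between the groups was many times the spread within either, and the means of 13.3 ± 0.77 and 5.39 ± 0.59 TPM gave a log2 fold change of -1.24 ± 0.15 SE (limma adjusted p = 0.061). Ncapg2 of condensin II gave 16.6, 15.3 and 11.7 TPM across Ctrl and 5.13, 5.77 and 7.36 TPM across Kmt5b sKO. Again no Kmt5b sKO library reached the lowest Ctrl library, and the means were 14.5 ± 2.6 and 6.09 ± 1.1 TPM (log2 fold change -1.19 ± 0.20 SE, limma adjusted p = 0.065).

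The kleisins were the pair that missed the threshold in the limma fit as reported. Ncaph was called by the count tools edgeR and DESeq2, with library medians centred and with quantile normalization. Ncapd2 in turn lost its call without a variance trend, with no filter on low values and with a pseudocount of 0.1. Ncaph, the condensin I kleisin, gave 25.5, 21.2 and 11.9 TPM in the Ctrl libraries, against 7.56, 7.96 and 10.6 TPM in Kmt5b sKO. Its 3 Kmt5b sKO values lay below all Ctrl values, but Ctrl 3 stood close to Kmt5b sKO 3, and with means of 19.5 ± 7.0 and 8.71 ± 1.7 TPM the log2 fold change of -1.07 ± 0.29 SE had a limma adjusted p of 0.14. Ncaph2, the condensin II kleisin, gave 46.2, 42.5 and 28.4 TPM in Ctrl, compared with 30.6, 26.9 and 26.2 TPM in Kmt5b sKO. The groups overlapped, since Kmt5b sKO 1 exceeded Ctrl 3, and the means of 39.0 ± 9.4 and 27.9 ± 2.4 TPM gave a log2 fold change of -0.45 ± 0.20 SE (limma adjusted p = 0.33).

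**Figure D1:**
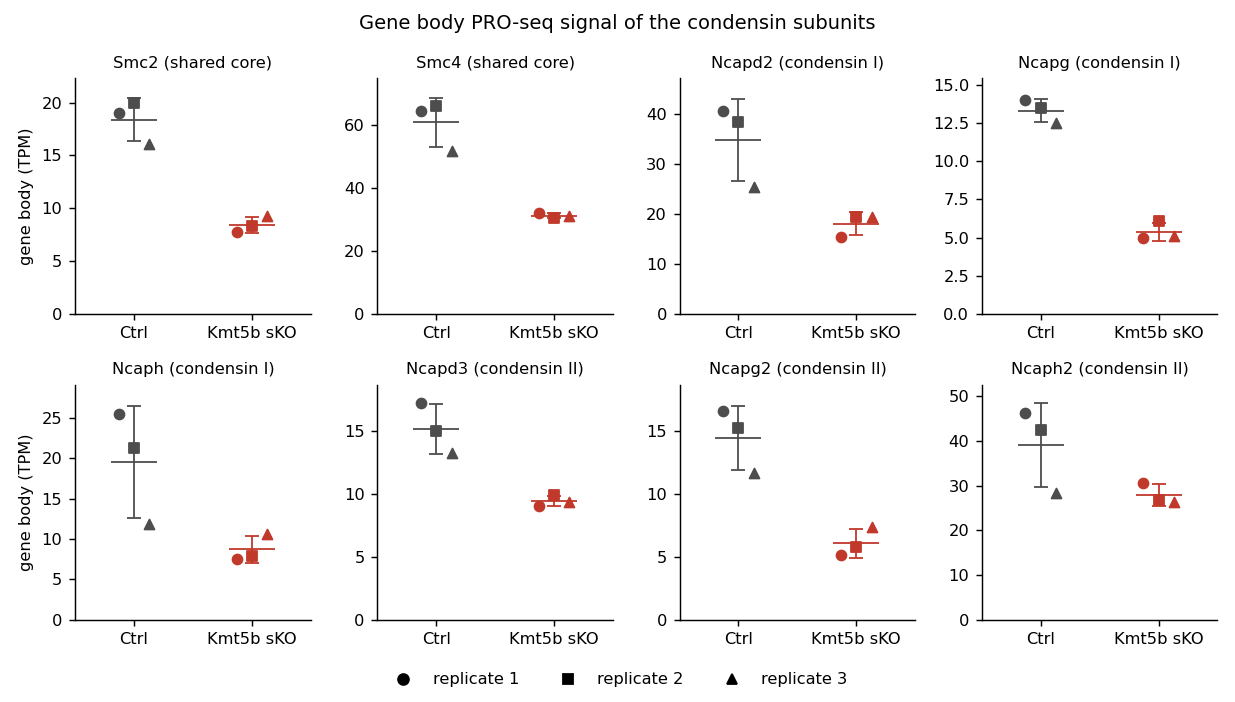
Gene body level in TPM (vertical axis, from 0) of the 8 condensin subunits in the 3 Ctrl (grey) and 3 Kmt5b sKO (red) libraries, with symbols for the replicate, a long line for the mean and bars for the SD. The Kmt5b sKO points lie below all Ctrl points in every panel but Ncaph2, and Ctrl 3 is the lowest Ctrl library in all 8 panels.

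The direction was the same in every one of 17 alternative settings for the gene body of all 8 members, but several could not alter it. Keeping chromosomes X and Y, no filter, no variance trend, the replicate block and the stricter threshold left each log2 fold change as it was. Where the groups did not overlap, leaving out a library could not turn the sign either. The number called was not the same in all settings. Without Ctrl 1, or without any single Kmt5b sKO library, 0 members were called by limma at an adjusted p under 0.1 (7 had an unadjusted p under 0.05 in each of these fits), 3 were called without Ctrl 2 (Smc2, Smc4 and Ncapg), and all 8 without Ctrl 3. Over all genes the same fits called 261 without Ctrl 2, 836 without Ctrl 3 and 0 in the rest, beside 372 with all libraries. The Ctrl 3 library held the lowest Ctrl value for each of the 8 genes.

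In the TSS region, where paused polymerase gathers, fewer members passed the threshold. Ncapd2, Ncapg and Ncapg2 were called lower (3 of 8, limma adjusted p under 0.1), and none was higher. Over all tested genes 91 (0.731%) were called lower in this region. All Kmt5b sKO libraries lay below all Ctrl libraries in 5 of the 8 members, Smc2, Smc4, Ncapd2, Ncapg and Ncapg2, as was so in 5.33% of tested genes. The median log2 fold change of the members was -0.77, beside 0.081 over all tested genes.

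Ncapd2 had the largest log2 fold change of the members in the TSS region with all libraries, at 43.6, 37.9 and 25.6 RPM (reads in the region scaled to the library's total over all TSS regions) in Ctrl, compared with 11.5, 12.6 and 14.7 RPM in Kmt5b sKO. Every Kmt5b sKO value was well under the lowest Ctrl value, with means of 35.7 ± 9.2 and 12.9 ± 1.7 RPM (log2 fold change -1.40 ± 0.29 SE, limma adjusted p = 0.042). Ncapg2 gave 73.4, 32.2 and 36.8 RPM across Ctrl and 11.8, 15.9 and 28.5 RPM across Kmt5b sKO. Here Ctrl 1 stood far above the other Ctrl libraries and Kmt5b sKO 3 near them, and the log2 fold change was -1.32 ± 0.34 SE (limma adjusted p = 0.082). In Ncapg the values were 131, 82.7 and 85.1 RPM in the Ctrl libraries, against 54.4, 33.7 and 54.7 RPM in Kmt5b sKO. The lowest Ctrl library exceeded the highest Kmt5b sKO library, and the means were 99.7 ± 27 and 47.6 ± 12 RPM (log2 fold change -1.06 ± 0.25 SE, limma adjusted p = 0.063). Without Ctrl 2 or without Kmt5b sKO 3 the log2 fold change of Ncapg2 (-1.54 and -1.66) exceeded that of Ncapd2 (-1.34 and -1.50). Among the members with a matched promoter, which leave out Smc4, an E2F word was found only in Ncapd2, Ncapg and Ncapg2. Smc4 was called too in this region without Ctrl 2 or without Ctrl 3. Smc2 and Ncapd3, which were called in the gene body, held no E2F word. Whether the calls are linked to these words was not tested.

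The core pair missed the threshold in the TSS region although the groups did not overlap. Smc4 gave 148, 92.5 and 96.6 RPM in Ctrl, compared with 58.4, 52.8 and 78.2 RPM in Kmt5b sKO (log2 fold change -0.81 ± 0.24 SE, limma adjusted p = 0.12). Smc2 gave 62.2, 47.7 and 41.7 RPM across Ctrl and 26.6, 26.4 and 38.6 RPM across Kmt5b sKO (log2 fold change -0.72 ± 0.26 SE, limma adjusted p = 0.23). In both, Kmt5b sKO 3 came nearest to the Ctrl range.

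For Ncaph, Ncapd3 and Ncaph2 the TSS values of the groups overlapped. Ncaph gave 25.9, 26.4 and 13.8 RPM in the Ctrl libraries, against 13.1, 11.9 and 17.0 RPM in Kmt5b sKO, where Ctrl 3 fell inside the Kmt5b sKO range (log2 fold change -0.60 ± 0.33 SE, limma adjusted p = 0.55). Ncapd3 gave 19.6, 26.4 and 47.6 RPM in Ctrl, compared with 26.9, 22.5 and 30.4 RPM in Kmt5b sKO, so that its Ctrl libraries held both the lowest and the highest value of the 6 (log2 fold change -0.14 ± 0.31 SE, limma adjusted p = 0.93). Ncaph2 gave 49.4, 36.2 and 31.6 RPM across Ctrl and 34.4, 30.4 and 41.4 RPM across Kmt5b sKO (log2 fold change -0.13 ± 0.25 SE, limma adjusted p = 0.92). The sign of the last 2 rested on 1 library each, being 0.21 for Ncapd3 without Ctrl 3 and 0.053 for Ncaph2 without Ctrl 1.

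**Figure D2:**
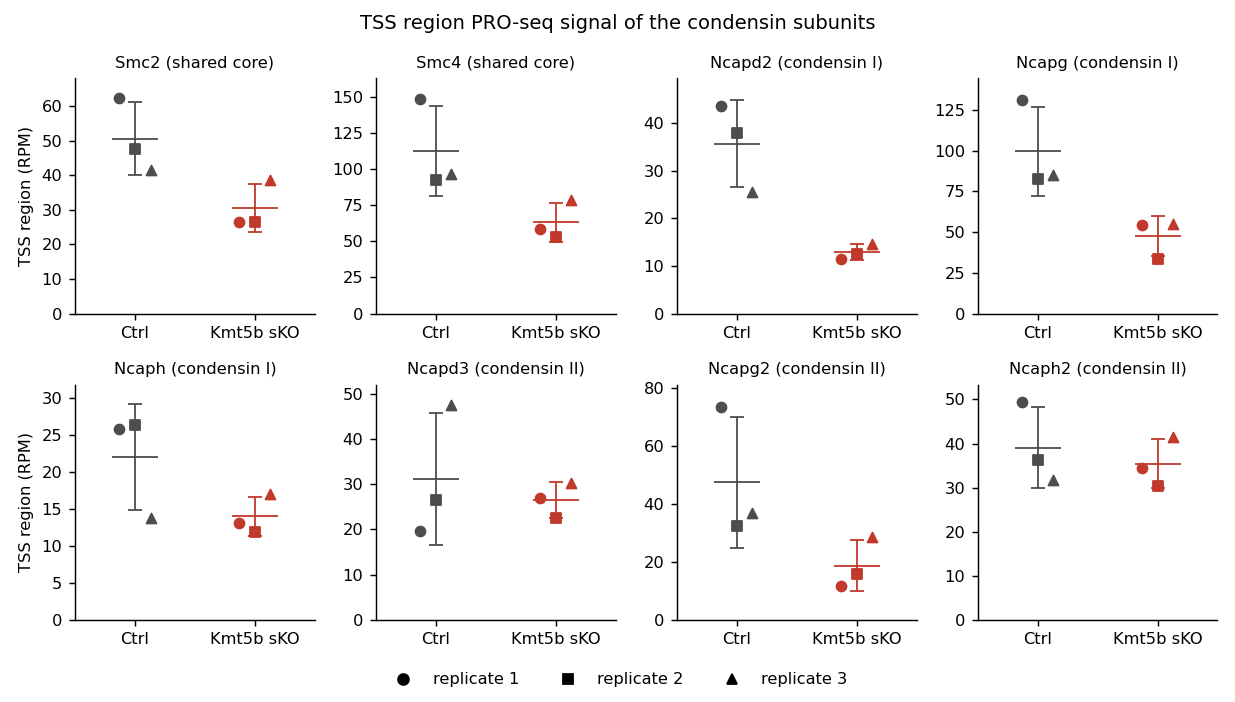
TSS region level in RPM (vertical axis, from 0) of the 8 condensin subunits in the 3 Ctrl (grey) and 3 Kmt5b sKO (red) libraries, with symbols for the replicate, a long line for the mean and bars for the SD. Ncapd2 has the largest log2 fold change (-1.40), and the points of Ncaph, Ncapd3 and Ncaph2 overlap.

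TSS values rest on fewer reads than gene bodies, from 18 (Ncaph, Kmt5b sKO 2) to 613 (Smc4, Ctrl 1) per member and library, against 120 (Ncapg, Kmt5b sKO 2) to 2758 (Smc4, Ctrl 1) in the body, and standard errors of the members ran from 0.24 to 0.34 in the TSS region and from 0.13 to 0.29 in the body on the log2 scale. No member was called in the TSS region without Ctrl 1 or without Kmt5b sKO 1, 1 (Ncapd2) without Kmt5b sKO 2 and 2 without Kmt5b sKO 3, while 4 were called without Ctrl 2 and 4 without Ctrl 3. Over all genes the same fits called 1 without Ctrl 1, 408 without Ctrl 2 and 270 without Ctrl 3. They called 16 without Kmt5b sKO 1, 132 without Kmt5b sKO 2 and 46 without Kmt5b sKO 3, beside 207 with all libraries. With a variance that did not follow the level, or with no filter on low values, no member was called, nor was any other gene.

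**Figure D3:**
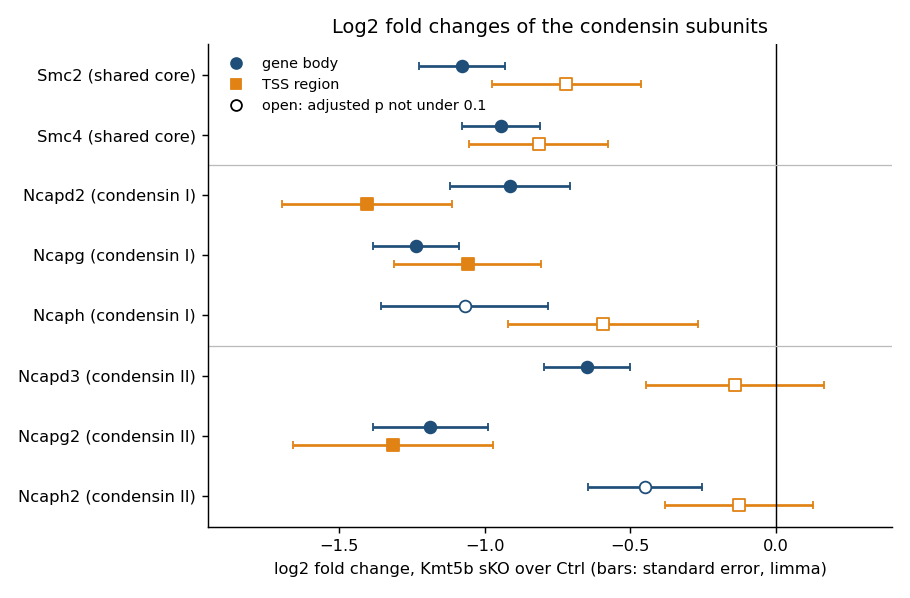
Log2 fold change of Kmt5b sKO over Ctrl (horizontal axis) with its limma standard error (bars) for each subunit, in the gene body (blue circles) and in the TSS region (orange squares), filled where the adjusted p was under 0.1. All 16 points lie left of 0, and Ncapd3 and Ncaph2 have the smallest differences in both regions.

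The pausing index, TSS level over gene body level, was set beside these values to see whether polymerase was held nearer the start. No member was called (0 of 8), nor was any of the 11698 genes with values above 0 in both regions of every library (0.0%), while 452 genes and 0 members had an unadjusted p under 0.05. The members' indices spanned a wide range in Ctrl. Ncapg had the highest, at 9.36, 6.14 and 6.80, while Ncaph2 (1.07, 0.85 and 1.11), Ncapd2 and Ncaph were all near 1, beside library medians over all genes of 1.47 to 1.54 in Ctrl and 1.504 to 1.607 in Kmt5b sKO.

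In 3 members the pausing index did not overlap between groups, as in 9.02% of the genes with an index. Ncapd2 was lower, at 1.070, 0.983 and 1.004 in Ctrl, beside 0.75, 0.65 and 0.76 in Kmt5b sKO (log2 difference -0.51 ± 0.25 SE), its TSS log2 fold change being -1.40 beside -0.91 in the body. Ncaph was higher, at 1.02, 1.24 and 1.17 in Ctrl, beside 1.73, 1.49 and 1.60 in Kmt5b sKO (0.50 ± 0.23 SE), as was Ncaph2, at 1.12, 1.13 and 1.58 in Kmt5b sKO (0.33 ± 0.27 SE). Each of the 3 had a limma adjusted p of 0.9997, so none passed the threshold. The remaining 5 overlapped, and their means moved from 2.75 to 3.60 in Smc2, 1.85 to 2.02 in Smc4, 7.43 to 9.06 in Ncapg, 2.17 to 2.83 in Ncapd3 and 3.23 to 2.97 in Ncapg2.

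**Figure D4:**
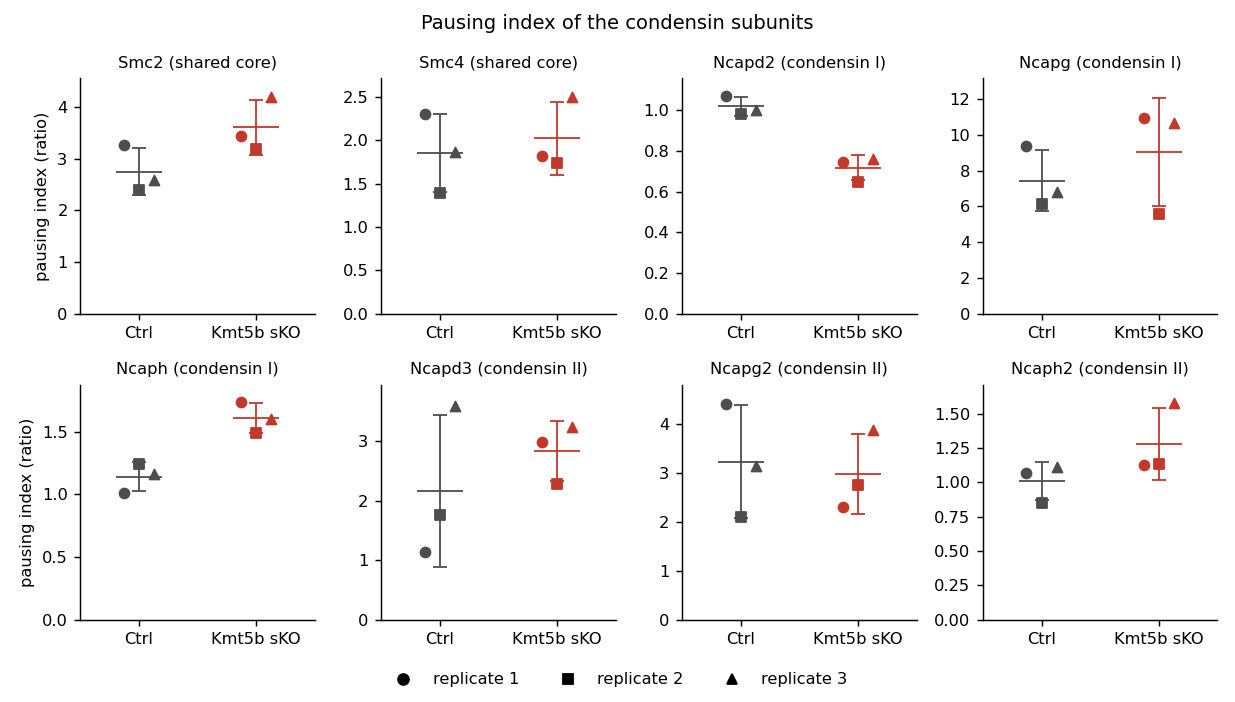
Pausing index, the ratio of TSS RPM to gene body TPM (vertical axis, from 0), of the 8 subunits in the 3 Ctrl (grey) and 3 Kmt5b sKO (red) libraries, with the mean (long line) and SD (bars). Ncapd2 lies lower and Ncaph and Ncaph2 higher in all Kmt5b sKO libraries, and none passed the threshold.

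Condensin I was then set against condensin II, without a test, as the difference of the mean log2 body level of Ncapd2, Ncapg and Ncaph from that of Ncapd3, Ncapg2 and Ncaph2. In Ctrl the mean levels of the complexes were close, with differences of 0.046, 0.061 and -0.070. Opposite pair differences lay behind this mean. In Ctrl they averaged 1.16 for Ncapd2 over Ncapd3, -0.10 for Ncapg over Ncapg2 and -1.02 for Ncaph over Ncaph2. In Kmt5b sKO condensin I lay below condensin II in each library, at -0.42, -0.23 and -0.25, so that the difference moved by -0.31 between groups. For this mean difference no Kmt5b sKO library overlapped the Ctrl range. The shift came to -0.62 for the kleisins (Ncaph over Ncaph2), -0.26 for Ncapd2 over Ncapd3 and -0.048 for Ncapg over Ncapg2, so it was largest for the kleisins and smallest for the Ncapg pair. Taken singly, the kleisin difference did not overlap between groups, while those of Ncapd2 over Ncapd3 and of Ncapg over Ncapg2 did.

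In the TSS region the same difference was 0.35, 0.47 and -0.28 in Ctrl, then -0.13, -0.36 and -0.45 in Kmt5b sKO. The groups overlapped there because Ctrl 3 was below Kmt5b sKO 1, and the mean moved by -0.49. Most of it lay with Ncapd2 over Ncapd3 (-1.26), followed by Ncaph over Ncaph2 (-0.47), while Ncapg over Ncapg2 moved the other way (0.26). Ncapd2 over Ncapd3 varied widely in Ctrl, at 1.13, 0.51 and -0.88, beside -1.19, -0.81 and -1.02 in Kmt5b sKO. Its Ctrl 3 value thus fell inside the Kmt5b sKO range. Leaving out each library in turn kept the sign, at -0.35 to -0.25 in the body and -0.72 to -0.35 in the TSS region.

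By level, Smc4 stood above the rest in Ctrl gene bodies, with 91.5% of tested genes below it, and its range did not overlap that of Ncaph2, the next in order. From Ncaph2 through Ncapd2, Ncaph, Smc2, Ncapd3 and Ncapg2 to Ncapg each neighbour overlapped the next, the last with 43.4% of tested genes below. In Kmt5b sKO the order was Smc4, Ncaph2, Ncapd2, Ncapd3, Ncaph, Smc2, Ncapg2 and Ncapg. Smc4 now overlapped Ncaph2, and the gaps lay between Ncaph2 and Ncapd2, between Ncapd2 and Ncapd3 and between Smc2 and Ncapg2. Ncapg closed the order again, with 19.6% of tested genes below it. In the TSS region, which has 1 length in all genes, Smc4 and Ncapg led in Ctrl at 113 and 99.7 RPM with no overlap with Smc2 below them, while every neighbour overlapped the next in Kmt5b sKO, where Ncapd2 came last at 12.9 RPM.

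An opposite-strand gene starts within 1000 nt of the start of 7 of the 8 members (87.5%), all but Ncaph, compared with 3312 of 12451 tested genes (26.6%). The distance was 60 nt for Ncaph2 and Lmf2, 100 nt for Ncapd2 and Mrpl51, 110 nt for Ncapd3 and Vps26b, 192 nt for Ncapg2 and D430020J02Rik, 211 nt for Ncapg and 1600023N17Rik, 278 nt for Smc2 and Smc2os, and 421 nt for Smc4 and Ift80. Reads were counted on the sense strand by the authors, so these partners do not share reads with the condensin genes. The 4 protein-coding partners were measured, and none was called in either region.

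Mrpl51, a mitochondrial ribosomal protein gene, gave 64.4, 51.7 and 33.4 TPM in the Ctrl libraries, against 75.5, 45.8 and 75.6 TPM in Kmt5b sKO (log2 fold change 0.41, limma adjusted p = 0.57), beside the drop of Ncapd2 from the same intergenic stretch. Ift80, of the intraflagellar transport machinery, gave 7.25, 7.53 and 6.36 TPM in Ctrl, compared with 5.82, 6.48 and 6.71 TPM in Kmt5b sKO (-0.14, limma adjusted p = 0.73). Vps26b, of the retromer, differed by 0.039 (limma adjusted p = 0.95) and Lmf2 by -0.46 (limma adjusted p = 0.46), close to the value of -0.45 for its partner Ncaph2. All 4 partners overlapped between groups. Scarna10 and Gm28967 lie inside Ncapd2 on its own strand, and reads from them would be counted with the gene body.

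Outside the complexes, the other SMC proteins were read as a list of relatives. Of Smc3 of cohesin, Smc5 and Smc6 of the repair complex and the X-inactivation factor Smchd1 none was called in either region (1 of 4 had an unadjusted p under 0.05 in the gene body and 0 in the TSS region), and their body median was -0.29, with all 4 values negative. In Smc5 (-0.32) and Smchd1 (-0.35) the Kmt5b sKO libraries lay below all Ctrl libraries, and in Smc3 and Smc6 (-0.26) the groups overlapped. Smc1a lies on the X chromosome, which the fit left out. Smc3 gave 28.2, 25.9 and 22.0 TPM across Ctrl and 21.8, 23.1 and 22.8 TPM across Kmt5b sKO (log2 fold change -0.16 ± 0.13 SE, limma adjusted p = 0.65). Whether the condensin core differed from these relatives was not tested.

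Of the 8 tested genes of the chromosome axis and periphery, 5 were called lower in the gene body and 0 higher, with a median log2 fold change of -1.10. Over all tested genes 1.38% were called lower in the body. Hmgb2, a chromatin-bending protein, went from 118 ± 14 to 47.7 ± 5.9 TPM (-1.30), and the shugoshins that guard centromeric cohesion followed, Sgo2a (-1.27) and Sgo1 (-1.001). Topoisomerase Top2a, which decatenates mitotic chromosomes beside condensin, went from 65.0 ± 18 to 28.9 ± 1.1 TPM (-1.12), while its interphase paralogue Top2b gave 25.0 ± 2.5 and 25.0 ± 3.4 TPM. Kif22, a chromokinesin, was the other called gene (-1.09). In the TSS region 3 of the 8 were called lower, beside 0.731% of all tested genes.

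Among 15 kinase and phosphatase genes with products that act on condensin, 4 were called lower in the gene body and 0 higher (median -0.86), and 3 were called lower in the TSS region. Of all tested genes 1.38% were called lower in the body and 0.731% in the TSS region. The called genes were Ccna2, the cyclin A partner of CDK (-1.31), Ttk of the spindle checkpoint (-1.02), Incenp of the Aurora B complex (-0.99) and Cdk1, whose kinase phosphorylates condensin (-0.99). Birc5, of the same complex as Incenp, had -1.05 in the body (limma adjusted p = 0.11) and was called lower in the TSS region (-1.09, limma adjusted p = 0.063). Of the B-type cyclins that partner CDK1, Ccnb2 went from 30.8 ± 3.7 to 22.3 ± 2.0 TPM with no overlap (-0.46, limma adjusted p = 0.17), and Ccnb1 gave 87.5 ± 4.1 and 86.5 ± 8.5 TPM in the body (-0.020) and a TSS log2 fold change of -0.82 (limma adjusted p = 0.15), while the casein kinase gene Csnk2a1 gave 27.2 ± 1.3 and 27.1 ± 1.1 TPM. Of the recruiters and regulators of condensin, Mcph1, the microcephalin that restrains condensin II, was called lower in the TSS region (-0.92, limma adjusted p = 0.074), and Kmt5a, the enzyme that sets H4K20me1, gave 43.7 ± 2.7 and 37.5 ± 3.6 TPM in the gene body with overlapping groups.

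Markers of the cell cycle moved with the condensin genes. In the gene body 12 of 19 tested S phase genes were called lower and 0 higher (median -0.92), and 16 of 20 genes of G2 and M phase were lower and 0 higher (median -1.0001). In the TSS region 6 and 4 of them were called lower. The shares of all tested genes called lower were 1.38% in the body and 0.731% in the TSS region. The 4 largest body differences were Mcm5 (-1.28), Pcna (-1.23), Uhrf1 (-1.20) and Chaf1b (-1.16) in S phase, and Bub1 (-1.44), Dlgap5 (-1.19), Hmmr (-1.15) and Aspm (-1.13) in G2 and M phase. Summed TPM of the S phase list ran from 872 to 978 in Ctrl and from 522 to 609 in Kmt5b sKO, and that of the G2 and M list from 442 to 687 and from 285 to 291. From these bulk libraries alone, fewer cells in a phase and less transcription per cell cannot be told apart. By flow cytometry of cultured MuSCs, the paper reports no significant change in the G0/G1 and S phase fractions and slightly more Kmt5b sKO cells in G2/M. Whether this holds for the cells of these libraries was not tested, nor was the part of these lists in the condensin values.

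Muscle differentiation genes went the other way in sum, at 2670 to 4934 TPM in Ctrl and 5302 to 7136 TPM in Kmt5b sKO. Of 12 genes 2 were called higher in the body, the slow troponin gene Tnnc1 (1.27) and the myosin light chain gene Myl1 (1.10), and 0 lower, with a median of 0.77, and 2 were called higher in the TSS region. Over all tested genes 200 of 12451 were called higher in the body and 116 in the TSS region. The 10 genes of muscle stem cells and myoblasts had 0 limma calls in either region (1 with an unadjusted p under 0.05 in the body and 0 in the TSS region) and overlapping sums (1579 to 2314 and 2084 to 2795 TPM). Lists of other cell types had 0 limma calls (at an unadjusted p under 0.05, 0 genes in the body and 1 each for fibroblasts and for smooth muscle and pericytes in the TSS region), and their sums overlapped between groups, at 83.3 to 156 and 96.3 to 129 TPM for fibroblasts (6 of 9 genes listed), 2.97 to 5.11 and 4.88 to 6.67 for endothelium (4 of 7), 219 to 423 and 332 to 340 for immune cells (3 of 8, nearly all from Cd68) and 73.7 to 178 and 102 to 118 for smooth muscle and pericytes (5 of 6). The part of these lists in the condensin values was not tested.

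Within libraries, the lists were compared by their mean log2 body level relative to the Ctrl mean. The SMC core lay at 0.074, 0.13 and -0.20 in Ctrl, then -1.05, -1.04 and -0.95 in Kmt5b sKO, condensin I at 0.25, 0.12 and -0.38 and -1.24, -1.02 and -0.96, and condensin II at 0.22, 0.075 and -0.30 and -0.81, -0.78 and -0.70. The G2 and M list had nearly the same course, at 0.24, 0.089 and -0.33 in Ctrl, then -0.98, -0.97 and -0.98 in Kmt5b sKO. In the S phase list Kmt5b sKO 1 stood lower than the others (-1.22 against -0.73 and -0.71), a difference that condensin I shared in a smaller size. Ctrl 3 was the lowest Ctrl library in each of these lists. It was also the lowest in the SMC relatives (-0.15), the muscle stem cell and myoblast list (-0.24) and the muscle differentiation list (-0.55).

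**Figure D5:**
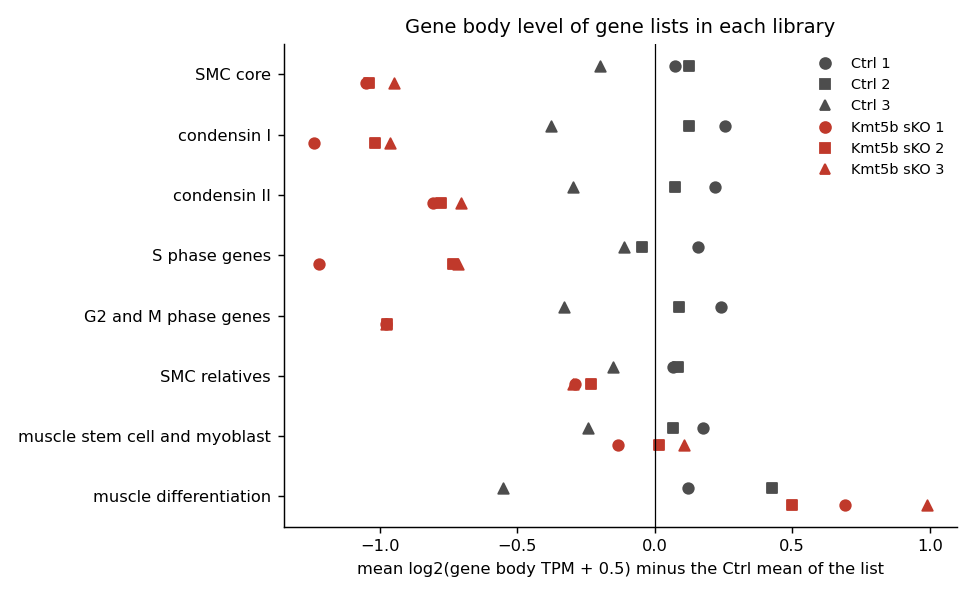
Mean log2(gene body TPM + 0.5) of each gene list minus its Ctrl mean (horizontal axis) in the 3 Ctrl (grey) and 3 Kmt5b sKO (red) libraries. Condensin lists and the S phase and G2 and M lists lie between -1.24 and -0.70 in Kmt5b sKO, the SMC relatives between -0.30 and -0.23, and the muscle differentiation list above 0.

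The 5 genes with body levels most like the mean of the 8 members over the 6 libraries were Ccna2 (Pearson r 0.999), Ccdc82 (0.998), Fbxo5 (0.998), Kif11 (0.997) and Depdc1a (0.997). These values are a description without a test, as the 6 points share 2 genotypes and the library scaling. Ccna2 encodes cyclin A, Fbxo5 the inhibitor EMI1 of the anaphase-promoting complex and Kif11 the spindle motor Eg5. Ccna2 went from 62.5 ± 15 to 24.6 ± 2.5 TPM, Fbxo5 from 50.7 ± 10 to 24.2 ± 2.4 TPM and Kif11 from 23.9 ± 5.4 to 10.8 ± 0.51 TPM.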

How the data were processed

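PRO-seq was analysed in 6 libraries, 3 Ctrl and 3 Kmt5b sKO, grouped by their labels. Per the study's methods and processing notes, the authors checked reads with FastQC 0.11.8, trimmed them at low-quality ends (Trimmomatic 0.39), mapped them by STAR 2.6.1d on GRCm38, keeping 1 random position of multi-mapping reads, removed duplicates with Picard 2.18.16, counted the sense strand per isoform of protein-coding genes, dropped low isoforms and kept 1 isoform per gene. The deposited TSS values are RPM, as the authors scaled reads in the 400 nt TSS region to a common total (the header says TPM, which is the same where all features have 1 length). The deposited gene body values are TPM, scaled by the authors for depth and body length over all isoforms. On both scales a change common to all genes would not show. All mapped columns were used, with 0 left over.

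With limma 3.58.1 (R 4.3.3), log2(value + 0.5) was fitted by genotype in each region over 12451 genes, leaving out chromosomes X and Y and genes with a mean under 0.5 in either region, with a variance trend. The pausing index, with no pseudocount, was fitted over 11698 genes. Calls used a Benjamini-Hochberg adjusted p under 0.1 over all genes fitted. Fold changes are on the log2(value + 0.5) scale. Whole reads were recovered from the steps of the values (100% of TSS values, and 99.7% to 100% of values in 711 bodies under 2000 nt, within 0.1 reads), and edgeR 4.0.16 and DESeq2 1.42.0 were run on them as alternatives. The median tested gene had 35 to 107 TSS reads and 203 to 468 body reads per library. Scripts were tested on simulated data. Gene IDs were matched to GENCODE annotation of GRCm38 (14528 of 14546).

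The members and lists were chosen with earlier results of these data known. Named genes were all members, up to 4 called genes of each list by size of the gene body change, the 5 genes most alike, the opposite-strand neighbours and Kmt5b. Ptprc, Kdr and Dcn, list genes with values that were not called in the gene body (Myod1, Des, Pax7, Col1a2, Col3a1, Cd68, Top2b, Birc5, Ccnb1, Ccnb2, Csnk2a1, Smc3, Smc5, Smc6, Smchd1, Kmt5a and Mcph1) and Kif22 were added after their values were seen. Other settings were another pseudocount, filter, scaling, variance model and threshold, the replicate block and leaving out each library. The count over the recruiters and regulators of condensin is not reported here.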

Additional observations from a re-analysis of the deposited data

How the results depend on the processing

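The number of condensin genes called in the gene body was 6 as reported, 4 to 7 with another pseudocount, scaling, filter, variance model or count tool or with chromosomes X and Y kept, and 0 at an adjusted p under 0.05. Leaving out each library gave 0 to 8. In the TSS region it was 3 as reported, 0 without a variance trend, 0 with no filter on low values, 1 (Ncapd2) at an adjusted p under 0.05, and 0 to 4 when each library was left out. Beside each 0 from limma, 7 members in the gene body and 4 or 5 in the TSS region had an unadjusted p under 0.05. edgeR called 7 members in the body and 4 in the TSS region, and DESeq2 the same numbers. Over all genes, 372 were called in the body as reported, 748 by edgeR, 1295 by DESeq2 and 0 to 836 when each library was left out. At an adjusted p under 0.05, limma called 1 gene in the body and 64 in the TSS region. The TSS region had 207 calls as reported, 279 by edgeR and 295 by DESeq2. It had 0 without a trend or without the filter and 1 to 408 when each library was left out. Same-numbered libraries did not deviate together (correlations -0.33 to -0.15 in the body and -0.16 to -0.034 in the TSS region). No pairing by replicate number was thus seen, though deviations from a mean of 3 libraries cannot exclude it. With the replicate block, 0 members were called in the body and 0 in the TSS region (7 and 5 at an unadjusted p under 0.05), and 0 for the pausing index, with 0 called over all genes in each. Signs turned for small differences: in the TSS region Ncaph2 was 0.053 without Ctrl 1 (-0.26 to 0.053 over all libraries left out) and Ncapd3 0.21 without Ctrl 3 (-0.42 to 0.21), and for the pausing index Ncapg2 was 0.17 without Ctrl 1 and 0.081 without Kmt5b sKO 1 (-0.36 to 0.17), and Smc4 was -0.054 without Ctrl 2 and -0.030 without Kmt5b sKO 3 (-0.054 to 0.31). The causes were not tested. Of the other single-gene values under these alternatives, 295 kept direction and side of the threshold, 64 lost the call and 11 gained it. The shallowest library, Kmt5b sKO 2, had 18 to 80 TSS reads per member.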
